A study of Mus musculus with 4 samples.

Results

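The superoxide dismutases, glutathione enzymes and haem oxygenase examined here are 10 antioxidant genes, Sod1, Sod2, Sod3, Gpx1, Gpx3, Gpx4, Gstm1, Gstm2, Gsta4 and Hmox1, measured in mouse embryonic fibroblasts. They were taken by gene symbol, using every probe set annotated to a single symbol of this list, which gave 12 of the 10833 single-symbol probe sets on the array and 10 of their 8251 genes. All 10 listed genes were present, and Gstm1 and Gstm2 had 2 probe sets each. The cells were wild-type or Xiap knockout, Xiap being the gene of the X-linked inhibitor of apoptosis protein. Each genotype was left unstimulated or given 20 ng/ml tumour necrosis factor (TNF) for 4 hours when confluent, so the groups were wild-type unstimulated, wild-type with TNF, knockout unstimulated and knockout with TNF. All 4 groups were kept in the same serum-containing medium, and each was measured on 1 Affymetrix U74Av2 array. The sources used here do not give the strain, sex, embryonic age or passage number of the cells, the number of embryos behind a culture, or whether a culture was 1 clone. No difference between 2 arrays below has a replicate check, and a difference between genotypes cannot be told apart from any other difference between the cultures.

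Superoxide dismutases turn superoxide into hydrogen peroxide and oxygen, and glutathione peroxidases then reduce hydrogen peroxide and lipid peroxides with glutathione as the electron donor. Glutathione S-transferases couple glutathione to reactive electrophiles, including aldehydes formed when lipids are oxidised. Haem oxygenase 1 breaks haem down to biliverdin, iron and carbon monoxide. In fibroblasts TNF is known to activate NF-kB, for which Sod2 is a well-known target, whereas many of the transferases and Hmox1 are targets of the stress-responsive factor NRF2.

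The values are probe set signals on a linear scale, with array medians between 149.9 and 182. For ratios, signals under a floor of 92.5 were set to the floor before log2 was taken, and a probe set counted as measured where at least 1 array compared was above it. A ratio with an array at the floor is a bound. All 12 probe sets passed on at least 1 array and 11 were above the floor on all 4. The TNF response marker Nfkbia, the gene of an NF-kB inhibitor, was 6.20-fold higher with TNF in wild-type and 5.91-fold higher in knockout cells. The chemokine gene Ccl2 went from 1439 to 18413.8 with TNF in wild-type (12.8-fold) and from 173.4 to 18083.4 in knockout cells (104-fold), and Icam1, an adhesion molecule gene, was at least 9.02-fold and at least 12.6-fold higher. The brightest Xiap probe set gave signals of 239 and 125.7 in wild-type and 180.5 and 120.1 in knockout cells, without and with TNF. The sources used here do not say which part of Xiap was removed, so these values do not check the genotype. Of 8 fibroblast markers 7 or 8 were above the floor on each array, with summed signals between 55986 and 62174, led by Col1a1, Col1a2 and Col3a1. Vim, which encodes vimentin, was near or below the floor throughout (42.1 to 94.5), and Thy1 was 3.63-fold lower in the knockout without TNF and 6.31-fold lower with it. Of 7 macrophage markers 3 or 4 were above the floor on each array, with summed signals between 1819.4 and 2960.6, most of them from Cd14 (1534.3 to 2402.4), while Ptprc and Adgre1 were below it on all 4. Of 5 epithelial markers Cdh1 was above the floor on all 4 arrays (296.8 to 530.5), and Epcam and the other 3 were below it on all 4. Xist gave signals of 34.3 and 5.4 in wild-type and 1232.4 and 1600.7 in knockout cells, and the Y-linked Eif2s3y gave 489.4 and 308.2 against 2.8 and 9.1, so the cultures also differed in these sex-linked transcripts.

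Among the 12 probe sets, Sod2 alone differed at least 2-fold with TNF, in both genotypes. Gpx3, Sod3 and the brighter Gstm2 set differed at least 2-fold between genotypes in both states. The second Gstm2 set passed in neither state, and the second Gstm1 set passed without TNF only. With TNF in wild-type cells 1 of 12 measured probe sets passed 2-fold, beside 5.26% of all measured single-symbol probe sets, and in knockout cells 1 of 12, beside 1.90%. Between genotypes, 4 of 12 passed without TNF, beside 9.10%, and 3 of 11 with TNF, beside 10.7%. The median log2 ratio of the members between genotypes was -0.38 without TNF and -0.01 with TNF, and over all measured probe sets it was -0.01 and 0.08. For TNF the members had a median of -0.23 in wild-type and 0.02 in knockout cells, against -0.10 and -0.05 over all.

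**Figure D1:**
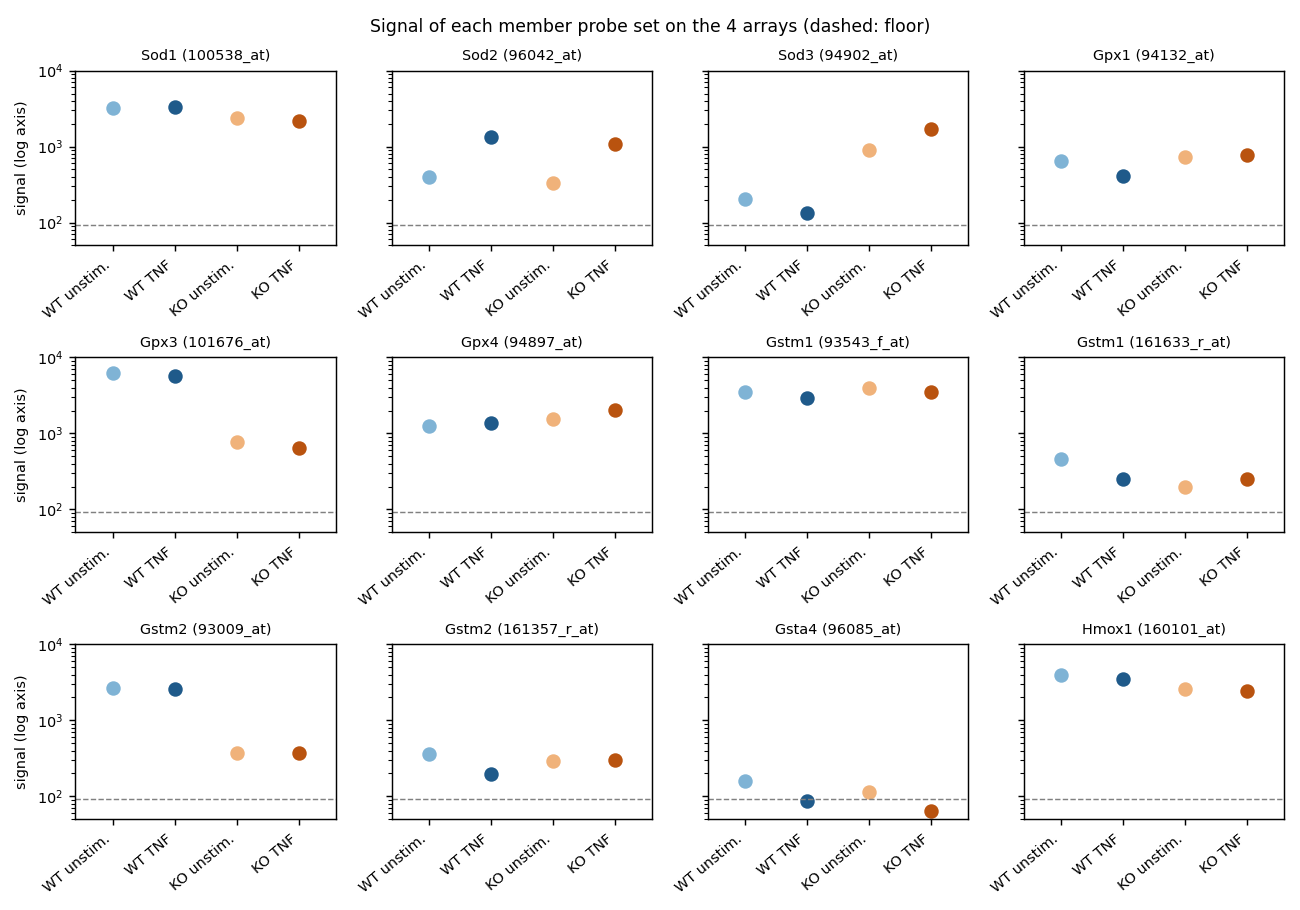
Signal on a log axis for each of the 12 member probe sets, with 1 point per array (light blue, wild-type unstimulated; dark blue, wild-type with TNF; light orange, knockout unstimulated; dark orange, knockout with TNF) and the floor of 92.5 as a dashed line. Sod2 is high on both TNF arrays, Gpx3 and the brighter Gstm2 set are high on both wild-type arrays, and Sod3 is high on both knockout arrays.

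Additive effects of genotype and TNF were also estimated over the 4 arrays with limma. The fit leaves 1 residual degree of freedom, and the error of a probe set is its difference of TNF response between the genotypes. This error was then pooled with that of other probe sets of like signal, which had a weight of 5.886 degrees of freedom. The SEs and p-values therefore rest mostly on the spread of other probe sets over these arrays, with no replicate cultures behind them. For genotype 6 of 12 member probe sets had an adjusted p below 0.05, beside 20.8% of 7454 probe sets, and for TNF 1 of 12, beside 1.37%. Without the adjustment the numbers with p below 0.05 were 7 for genotype and 3 for TNF among the members, and 2563 and 1054 over all probe sets.

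Of the 3 superoxide dismutases, Sod2, the manganese enzyme of mitochondria, followed the treatment. Its signal was 402 in wild-type unstimulated cells, 1357.6 in wild-type cells with TNF, 332.6 in knockout unstimulated cells and 1070.7 in knockout cells with TNF. Both TNF arrays lay above both unstimulated arrays, by 3.38-fold in wild-type and 3.22-fold in knockout cells. When measured probe sets were put into 5 groups of equal size by mean signal, 1.34% of the group of Sod2 had a wild-type TNF ratio at least as large in either direction, and 0.852% in knockout cells. Sod2 rose with TNF in the limma fit, with a log2 effect of 1.72 (SE 0.15, adjusted p = 0.00243), higher in 2 of 2 genotypes. The difference between the 2 responses was -0.07 on the log2 scale, where 81.6% of probe sets of like signal differed at least as much. Between genotypes Sod2 had log2 ratios of -0.27 without and -0.34 with TNF (limma genotype effect -0.31, SE 0.15, adjusted p = 0.196).

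Promoter windows were searched for motifs of factors tied to TNF and oxidative stress. The 3 stretches shown are those of Sod2 and Gpx1, with a match to the NF-kB motif kappaB, and of Sod1, with the stress motif. The part of these matches in the TNF or genotype ratios was not tested. The windows run from 250 bases before to 50 bases after each RefSeq transcription start (build GRCm38.p6). Of the 10 genes 7 had at least 1 window, 11 windows in all. Sod3, Gsta4 and Hmox1 had no window, so they were not searched for any motif. The stretches below give the 130 bases before the start, 5′ to 3′ on the plus strand, at chr17:13007709-13007838 for Sod2, chr9:108338950-108339079 for Gpx1 and chr16:90220632-90220761 for Sod1. Capitals mark the match to the kappaB consensus in Sod2 and Gpx1, and in Sod1 the antioxidant response element core TGACNNNGC, read on the minus strand, followed by the TATA box TATAAA.
Sod2: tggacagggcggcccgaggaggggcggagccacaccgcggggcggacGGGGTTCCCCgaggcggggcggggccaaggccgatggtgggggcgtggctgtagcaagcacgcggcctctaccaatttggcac
Gpx1: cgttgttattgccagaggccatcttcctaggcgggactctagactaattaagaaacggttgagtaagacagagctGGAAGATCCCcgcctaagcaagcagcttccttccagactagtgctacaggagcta
Sod1: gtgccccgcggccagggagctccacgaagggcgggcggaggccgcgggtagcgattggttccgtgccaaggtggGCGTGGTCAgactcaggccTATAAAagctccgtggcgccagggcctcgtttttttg

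The kappaB match began 83 bases before the start in Sod2 and 55 bases before it in Gpx1, where it reads on the minus strand. Both strands were searched with each motif, and 5.80% of 32851 windows of the same length held a kappaB match. In Gpx3 a kappaB match began at the start itself. The Sod2 stretch also holds 4 copies of the GC box GGGCGG, none of which overlaps the kappaB match. The Sod1 window held 4 copies too, and windows of Gpx1, Gpx3 and Gpx4 held at least 1, as did 35.7% of all windows. The antioxidant response element core was found in the Sod1 window, beginning 56 bases before the start, and in 12.4% of all windows, and the TATA box 37 bases before the start, against 13.6%. The AP-1 motif TGANTCA, found in 7.81% of windows, had no match in any of the 11 windows. The Gstm2 window held none of these 5 motifs, and neither did 1 window of Gstm1 and 1 of Gpx4. The other Gstm1 window held a TATA box 30 bases before its start and no other of the motifs.

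Sod1, the copper and zinc enzyme of the cytosol, had signals of 3209.7 and 3335.4 in wild-type cells and 2356.3 and 2169.1 in knockout cells, without and with TNF. Both knockout arrays lay below both wild-type arrays, and with TNF Sod1 was 1.04-fold higher in wild-type (log2 -0.01 with quantile normalization) and 1.09-fold lower in knockout cells. The knockout was 1.36-fold lower without and 1.54-fold lower with TNF, sizes reached by 30.7% and 19.3% of probe sets of like signal. In the limma fit Sod1 was lower in the knockout by a log2 ratio of -0.53 (SE 0.10, adjusted p = 0.0118), in 2 of 2 states, and lost this call when the fit had no intensity trend. Its TNF effect was -0.03 (SE 0.10, adjusted p = 0.907). Ccs, the copper chaperone that loads Sod1, had a log2 ratio of 0.53 without and 0.62 with TNF between genotypes on its brightest probe set, and its _r_at probe set gave -0.84 and -0.23.

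Sod3, the secreted enzyme that binds the extracellular matrix, differed by genotype and was the member whose TNF responses differed most. Its signal was 203.4 and 135.3 in wild-type cells and 894.4 and 1704.5 in knockout cells, without and with TNF. Both knockout arrays were above both wild-type arrays, by 4.40-fold without TNF and by 12.6-fold with it. With the floor at the 60th percentile, which lies above both wild-type signals, the log2 ratio with TNF was 2.55 in place of 3.66. With TNF the wild-type signal was 1.5-fold lower and the knockout signal 1.91-fold higher, each under 2-fold. The limma genotype effect was 2.90 on the log2 scale (SE 0.34, adjusted p = 0.00201), higher in 2 of 2 states. The TNF effect was 0.17 (SE 0.34, adjusted p = 0.847). The SE was the largest among the 12 probe sets in this fit, in which a difference of response counts as error.

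**Figure D2:**
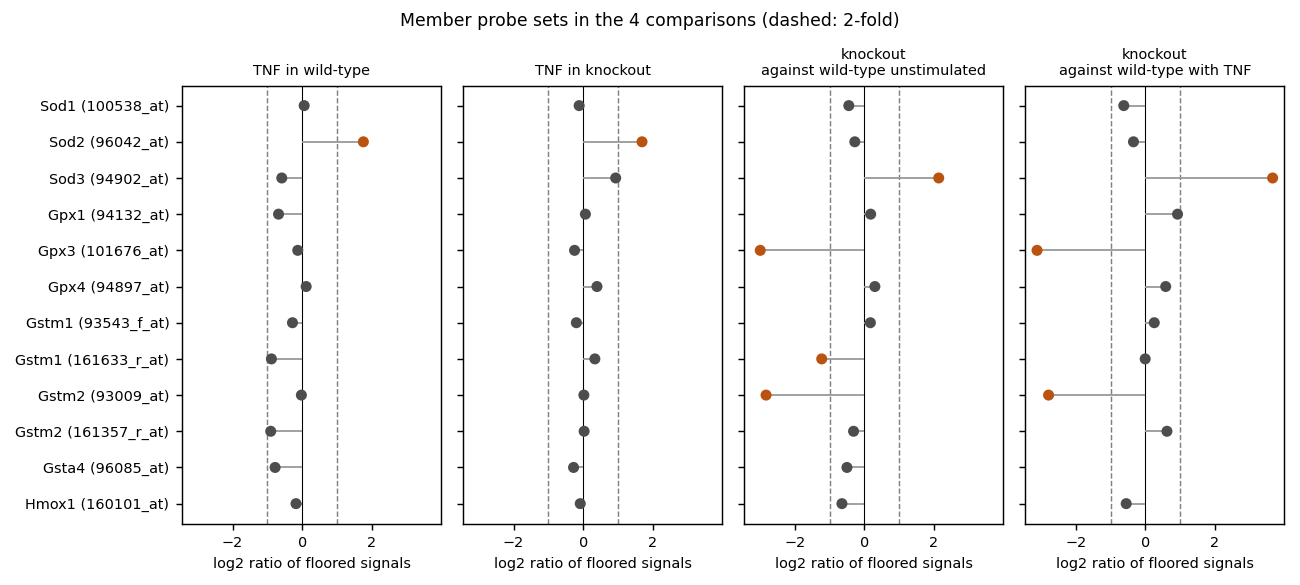
Log2 ratios of floored signals for the 12 member probe sets in the 4 comparisons of 2 arrays, with 2-fold as dashed lines and points past it in orange. Sod2 passes with TNF in both genotypes, and Sod3, Gpx3 and the brighter Gstm2 set pass between genotypes in both states. The dimmer Gstm1 set passes between unstimulated cultures only, and Gsta4 has no point in the last panel, where both arrays were below the floor.

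Of the glutathione peroxidases, Gpx3, the secreted enzyme found in plasma, had the largest limma genotype effect of the 12 probe sets. Its signal was 6162.3 and 5634.9 in wild-type cells and 775.7 and 651.9 in knockout cells, without and with TNF. Both wild-type arrays were far above both knockout arrays. The knockout was 7.94-fold lower without and 8.64-fold lower with TNF, sizes reached by 0.753% and 0.640% of probe sets of like signal. In the limma fit Gpx3 was lower in the knockout, with a log2 effect of -3.05 (SE 0.10, adjusted p = 1.21e-05), in 2 of 2 states. With TNF it was 1.09-fold lower in wild-type and 1.19-fold lower in knockout cells (limma TNF effect -0.19, SE 0.10, adjusted p = 0.438), and the wild-type direction turned when the arrays were scaled to equal medians (log2 0.15).

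Gpx3 is known for high expression in adipose tissue, and some adipocyte markers differed between the same arrays. Of 4 such markers on the array, Lpl, Fabp4 and Pparg were above the floor on both wild-type arrays and below it on both knockout arrays, and Adipoq, the adipocyte hormone gene, was below it on all 4. Summed over the 4 markers, the signal was 1358.8 and 930 on the wild-type arrays, against 150.1 and 182.5 on the knockout arrays. Lpl, the lipoprotein lipase gene, accounted for most of this sum in wild-type cells, at 976.9 and 667.2. The part of the adipocyte markers in the differences of Gpx3 and of the brighter Gstm2 set, which followed the same arrays, was not tested.

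Gpx1, the cytosolic peroxidase, had signals of 652.4 and 406.9 in wild-type and 740.1 and 772 in knockout cells, without and with TNF. The wild-type array with TNF stood alone as the low value. It was 1.60-fold lower than its unstimulated partner, whereas in knockout cells the TNF array was 1.04-fold higher. The difference of response was 0.74 on the log2 scale, under 2-fold, and 4.83% of probe sets of like signal had one at least as large. The limma genotype effect was 0.55 (SE 0.21, adjusted p = 0.109) and the TNF effect -0.31 (SE 0.21, adjusted p = 0.522).

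Gpx4, which reduces lipid hydroperoxides within membranes and protects cells from ferroptosis, had signals of 1253.2 and 1355 in wild-type and 1546.5 and 2030.7 in knockout cells, without and with TNF. Both knockout arrays were above both wild-type arrays, by 1.23-fold and 1.5-fold. Its limma genotype effect was 0.44 (SE 0.12, adjusted p = 0.0412), higher in 2 of 2 states, and this call was lost with equal medians, with a floor at the 20th percentile and with no intensity trend. The TNF effect was 0.25 (SE 0.12, adjusted p = 0.39).

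The glutathione transferases of the mu class, Gstm1 and Gstm2, neighbour each other in a cluster on chromosome 3, and their probe sets disagreed. The brighter Gstm2 probe set (93009_at) had signals of 2630.7 and 2586.1 in wild-type and 371.9 and 376.2 in knockout cells, without and with TNF. The 2 wild-type values lay close together and far above both knockout values. The knockout was 7.07-fold lower without and 6.87-fold lower with TNF, and the limma genotype effect was -2.80 on the log2 scale (SE 0.12, adjusted p = 2.73e-05), lower in 2 of 2 states. With TNF its log2 ratio was -0.02 in wild-type cells, or 0.26 with equal medians, and 0.02 in knockout cells (limma TNF effect -0.00, SE 0.12, adjusted p = 0.994).

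The second Gstm2 probe set (161357_r_at) did not show this. Its signals were 365.3 and 195.1 in wild-type and 294.8 and 299.8 in knockout cells, without and with TNF, so the genotypes overlapped. Its log2 ratio between genotypes was -0.31 without and 0.62 with TNF, a gap of 2.51 and 3.40 to the brighter set. Its limma genotype effect was 0.16 (SE 0.28, adjusted p = 0.752). The genotype difference of Gstm2 therefore rests on 1 probe set.

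For Gstm1 the brighter probe set (93543_f_at) had signals of 3535.4 and 2910.7 in wild-type and 3987.5 and 3473.4 in knockout cells, without and with TNF. The 4 values lay within 1.37-fold of each other and no comparison passed 2-fold. The ending _f_at marks probes shared by members of a sequence family, so the signal of Gstm1 alone is uncertain. The brightest sets of Gstm3 and Gstm5, of the same cluster, are also _f_at sets. Log2 genotype ratios for these brightest sets of Gstm1, Gstm3 and Gstm5 were 0.17, 0.17 and 0.15 without TNF and 0.26, 0.27 and 0.15 with it. These are small: without TNF 68.7% of probe sets of like signal had a ratio at least as large as that of Gstm1. The part of shared probes in these ratios was not tested. Other sets of Gstm3 and Gstm5 differed from the brightest ones. The plain _at set of Gstm5 gave 0.45 without and 0.56 with TNF, and its _r_at set gave 0.11 and -0.52. Another _f_at set of Gstm5, above the floor on 1 array only, gave at least 0.22 without TNF. The _r_at set of Gstm3 gave -0.09 and 0.27. The second Gstm1 probe set (161633_r_at) had signals of 459.8 and 249 in wild-type and 196.9 and 248 in knockout cells. Here the wild-type unstimulated array stood alone as the high value, which made the knockout 2.34-fold lower without TNF, whereas with TNF the log2 ratio was -0.01. Its limma genotype effect was -0.61 (SE 0.32, adjusted p = 0.228), which passed the threshold only with equal medians, and that of the brighter set was 0.21 (SE 0.09, adjusted p = 0.156).

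Both second sets carry the ending _r_at, which marks probe sets in which a rule of probe selection had to be dropped, and both were lower on the wild-type TNF array than on its partner, by log2 ratios of -0.88 for Gstm1 and -0.90 for Gstm2. Over all 329 measured _r_at probe sets, 83.3% were lower with TNF in wild-type cells, with a median of -0.35, whereas of 5853 plain _at sets 60.1% were lower, with a median of -0.09. In knockout cells the medians were -0.08 and -0.04. The part of this array-wide pattern in the values of Gstm1 and Gstm2 was not tested.

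Gsta4, an alpha-class transferase that conjugates lipid-derived hydroxyalkenals, was dim. Its signals were 158.8 and 85.4 in wild-type and 112.3 and 64.5 in knockout cells, without and with TNF, so only the unstimulated arrays were above the floor. The TNF arrays were at least 1.72-fold lower in wild-type and at least 1.21-fold lower in knockout cells. Between unstimulated cultures the knockout was 1.41-fold lower, and with TNF no ratio could be given. The limma fit, in which both TNF values stand at the floor, gave a TNF effect of -0.53 (SE 0.20, adjusted p = 0.304).

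Hmox1, the inducible haem oxygenase, had signals of 4011.4 and 3542.8 in wild-type and 2568.3 and 2417.6 in knockout cells, without and with TNF. Both knockout arrays were below both wild-type arrays, by 1.56-fold and 1.47-fold, sizes reached by 17.5% and 24.0% of probe sets of like signal. In the limma fit the log2 genotype effect was -0.60 (SE 0.09, adjusted p = 0.00602), lower in 2 of 2 states, a call lost without the intensity trend. With TNF the ratio was -0.18 in wild-type, which turned to 0.10 with equal medians, and -0.09 in knockout cells (limma TNF effect -0.13, SE 0.09, adjusted p = 0.547).

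**Figure D3:**
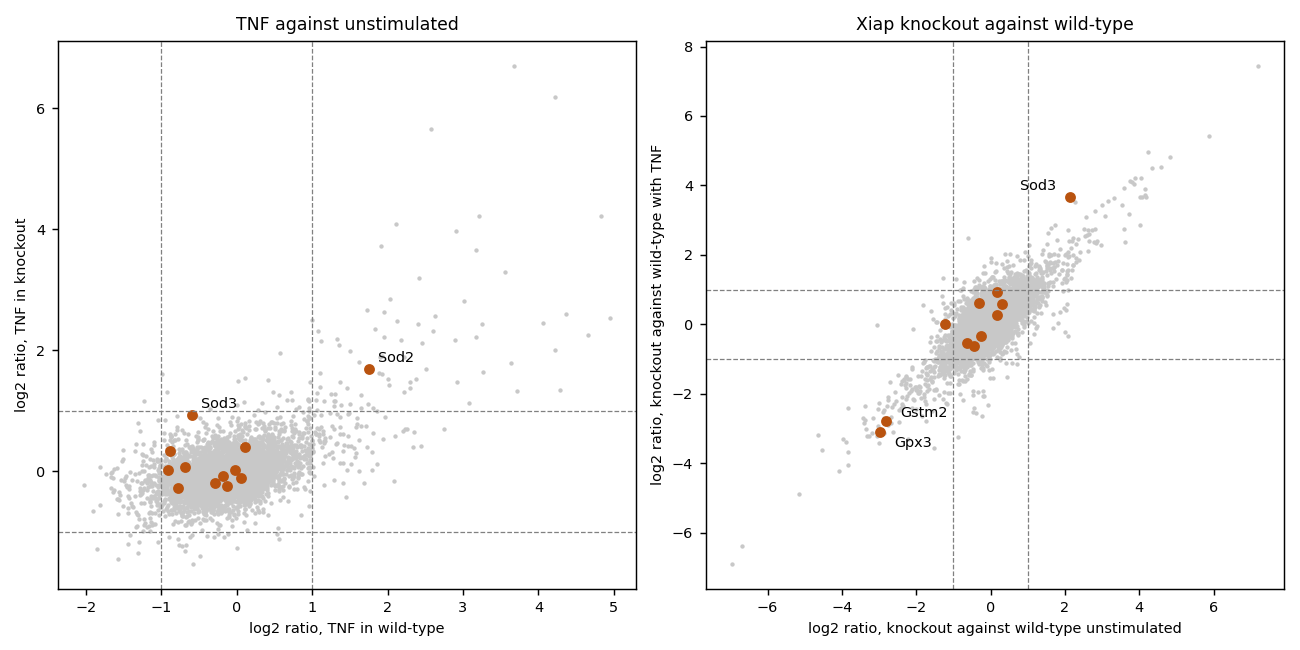
Log2 ratios of all probe sets measured in both comparisons (grey) and of the members (orange), for TNF in wild-type against TNF in knockout cells (left) and for the genotype ratio without against with TNF (right), with 2-fold as dashed lines. The comparisons of a panel share no array. Sod2 lies past 2-fold in both responses, Sod3 off the diagonal in both panels, and Gpx3 and the brighter Gstm2 set lie near the diagonal on the right; the second Gstm2 set, not labelled, has ratios of -0.31 and 0.62 there.

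The genotype ratios without and with TNF come from separate pairs of arrays, and 10 of 11 member probe sets measured in both had the same sign, against 73.4% of 6880 probe sets overall. The second Gstm2 probe set was the exception. Among those with the same sign, the second Gstm1 set had -1.22 without TNF but only -0.01 with it. For TNF, 6 of 12 had the same sign in wild-type and knockout cells, against 65.4% of 6703. The difference of TNF response, knockout minus wild-type, passed 2-fold for 2 of 12, beside 3.80% of probe sets. These were Sod3 at 1.52 and the second Gstm1 set at 1.22 on the log2 scale, and neither difference has a test.

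Patterns like those of the 3 members with the widest range over the arrays were sought among 1198 genes, by the root mean square difference of mean-centred log2 signals over the 4 arrays. Nearest to Gpx3 were Gas5 (0.049, with signals of 7536.4, 7257.8, 912.4 and 782.3 in the order wild-type without and with TNF, then knockout without and with TNF), C1qtnf12 (0.105) and Tenm3 (0.106), but both knockout signals of C1qtnf12 and of Tenm3 were below the floor, between 6.4 and 35.4, so their distances depend on the floor. Nearest to the brighter Gstm2 set were Renbp (0.065, with signals of 3301.2, 3314.9, 518 and 518.3), Ifi30 (0.085) and the imprinted Meg3 (0.088). The nearest genes to Sod3 were farther away, at 0.346 for Igsf10, 0.348 for Slc29a1 and 0.392 for Pcp4l1, and Igsf10 gave 506 and 361.8 in wild-type and 3540.9 and 3487.2 in knockout cells. Pcp4l1 had wild-type signals of 7.6 and 4.4, under the floor, so its distance depends on the floor too.

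Around the members, 75 further genes of glutathione, peroxiredoxin, thioredoxin, haem and NRF2 biology were listed, of which 55 were on the array, each represented by its brightest probe set. With TNF none passed 2-fold in either direction, of 45 measured in wild-type and 43 in knockout cells, beside 2.64% of all measured genes higher and 2.61% lower in wild-type and 1.48% and 0.409% in knockout cells. The widest TNF ratios in wild-type cells were those of Maff (log2 0.93) and Bach1 (0.82), whose proteins bind at NRF2 sites. In knockout cells they were those of Mgst2 (-0.67) and Mafg (0.66). Nfe2l2, which encodes NRF2, had signals of 867.2 and 1327.3 in wild-type and 886.2 and 1108.6 in knockout cells, without and with TNF.

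Between unstimulated genotypes 2 of 46 measured genes of this list were at least 2-fold higher in the knockout, beside 4.55% of all genes, and 3 were lower, beside 4.70%. With TNF, 2 of 45 were higher, beside 5.62%, and 5 lower, beside 5.01%. The microsomal transferase gene Mgst1 had signals of 1376.5 and 977.4 in wild-type and 32.5 and 35.2 in knockout cells, at least 14.9-fold lower without TNF and 10.6-fold lower with it, again as a lower bound. Gpx7, a peroxidase of the endoplasmic reticulum, had 926.5 and 856.6 against 10.6 and 9.3, so the differences were at least 10.0-fold without TNF and at least 9.26-fold with it. Both genes had a bright signal on the wild-type arrays and one below the floor on the knockout arrays.

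Smaller genotype ratios went both ways. Xdh, the gene of xanthine dehydrogenase, was at least 2.23-fold lower in the knockout without TNF and 2.58-fold lower with it. Bach1 (3.32-fold) and Maff (2.43-fold) were lower in the knockout with TNF. The glutaredoxin gene Glrx was 2.44-fold higher without and 3.19-fold higher with TNF, and Gstt1 was 2.47-fold higher with TNF. The brightest Mgst2 set was at least 2.29-fold higher without TNF. Another Mgst2 set went the other way there, with signals of 110.5 in wild-type and 57.4, below the floor, in knockout cells. The genes for glutathione synthesis and recycling did not pass 2-fold: Gclc had genotype log2 ratios of -0.51 and -0.67, Gclm of -0.32 and -0.44, the brightest Gss set of 0.28 and 0.01 and Gsr of -0.29 and -0.28, without and with TNF. Catalase, encoded by Cat, removes hydrogen peroxide in peroxisomes, and its probe sets gave -0.52 and -0.00 without and 0.13 and 0.57 with TNF. For Prdx2, a peroxiredoxin, the brightest set gave 0.18 without TNF and another set was at least 7.33-fold lower, so that gene is also uncertain.

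**Figure D4:**
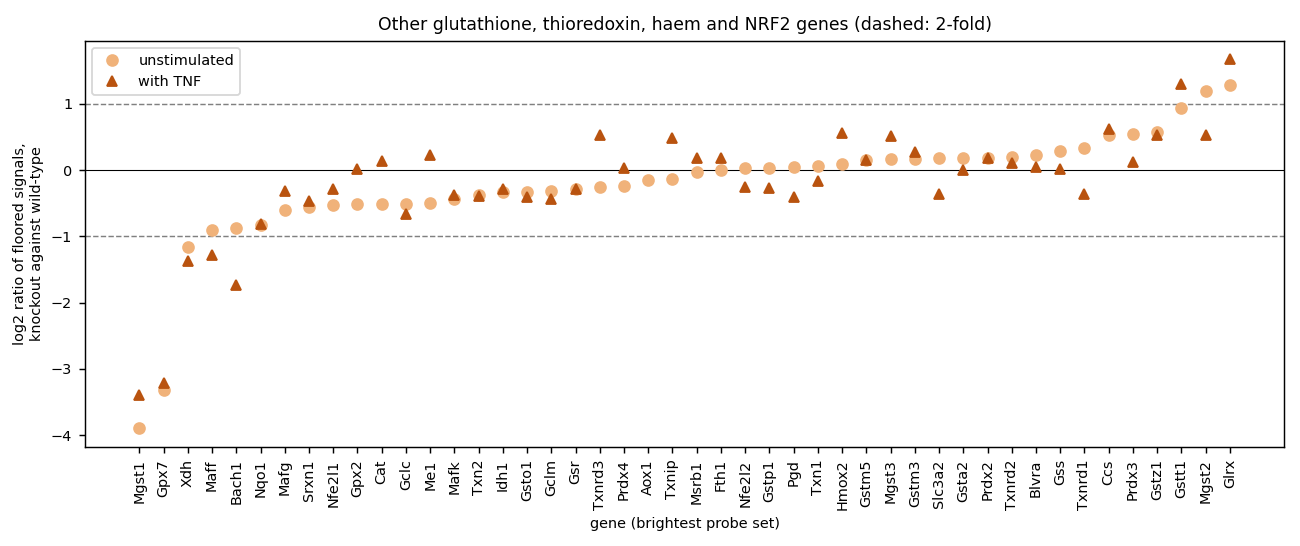
Log2 ratio of floored signals, knockout against wild-type, for the measured genes of the wider list (circles, unstimulated; triangles, with TNF), ordered by the unstimulated ratio, with 2-fold as dashed lines. Mgst1 and Gpx7 stand far below the others, and Glrx is the highest in both states.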

How the data were processed

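Single-colour Affymetrix U74Av2 arrays were read as probe set intensities on a linear scale, deposited by the authors. The submitters' processing notes name MAS5, and the sources used here do not give its version, background settings or detection calls. All 4 columns have a trimmed mean of 500.3 (2% left out at each end), so they had been scaled before deposit, and rescaling to it changed no member value by more than 3.2e-05 of itself. Of 12488 probe sets, 66 controls were left out, 10833 had 1 symbol in the platform annotation, 396 several and 1193 none. Symbols were updated through Entrez identifiers, of which 10817 matched the RefSeq table of GRCm38.p6.

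Signals under the 40th percentile over all arrays (92.5, controls left out) were set to it before log2 was taken, which understates the change of dim genes. With 1 array a group no test of 2 arrays was made, and 2-fold was the threshold. The additive model (limma 3.58.1 in R 4.3.3, lmFit, then eBayes with trend = TRUE; 2-sided p-values, adjusted by Benjamini-Hochberg, threshold 0.05) covered 7454 measured single-symbol probe sets and was tested on simulated data. Genes with several probe sets are represented in the wider list by the one with the highest mean signal. The named genes are all members, up to 4 genes of the wider list past 2-fold in each direction of each comparison (or the 2 largest where none passed), the 3 nearest patterns of each of 3 members, and the checks; those of glutathione synthesis, catalase, Ccs, Nfe2l2, Prdx2, Gstm3 and Gstm5 were added after their values were seen. The members and lists were chosen with earlier results of these data known. Scaling, floor, filter, probe set choice and trend were varied as alternatives. The number of arrays limits the precision.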

Additional observations from a re-analysis of the deposited data

Results flagged for a closer look

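For 2 member probe sets TNF went with a lower signal in wild-type cells and a higher one in knockout cells, and the responses were at least 2-fold apart. For Sod3 the log2 responses were -0.59 and 0.93, a difference of 1.52. For the second Gstm1 probe set (161633_r_at) they were -0.88 and 0.33, a difference of 1.22, against 0.08 for the brighter Gstm1 set, whose sign turned with equal medians. Over all 351 _r_at probe sets the median difference was 0.26, and over 6130 _at sets 0.04. With 1 array a group neither difference was tested.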

How the results depend on the processing

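Each count was recomputed with quantile normalization, equal medians, no rescaling, floors at the 20th (20.5) and 60th (291) percentile, no floor with 16 added, only probe sets above the floor on every array, and 1 probe set a gene. The 4 counts past 2-fold in the comparisons of 2 arrays stayed within 1.5 times of their values. The count of 2 for the difference of TNF response became 1 with equal medians and with 1 probe set a gene, and 0 with the floor at the 60th percentile, where both wild-type signals of Sod3 lay below the floor. The count of 6 for the genotype effect in limma became 3 with no intensity trend (Sod3, Gpx3 and the brighter Gstm2 set). It stayed 6 with equal medians, where Gpx4 was lost and the second Gstm1 set gained. In the fit with equal medians the error of every probe set was taken wholly from probe sets of like signal, for genotype and for TNF. The gap between the 2 genotype ratios of that Gstm1 set therefore had no weight of its own there. The count of 1 for TNF, Sod2, was found under every alternative run. Of 347 single log2 ratios under an alternative, 343 kept their side of 2-fold, 4 fell below it and none of those past 2-fold changed sign. Those 4 were Sod3 (0.93) and the second Gstm1 set (0.66) for the difference of response and that Gstm1 set between unstimulated genotypes (-0.66) at the higher floor, and its difference of response with equal medians (0.98). Equal medians moved the median of all probe sets by 0.269 for TNF in wild-type cells, -0.184 for genotype with TNF and -0.209 for the difference of response. They also turned the wild-type TNF ratios of Gpx3, the brighter Gstm2 set and Hmox1. Of all probe sets past 2-fold, 180 were higher and 194 lower for TNF in wild-type cells, but 231 and 103 with quantile normalization and 335 and 86 with equal medians; for genotype with TNF 403 and 349 became 291 and 528 with equal medians; for the difference of response 195 and 88 became 126 and 128 with quantile normalization and 110 and 181 with equal medians. With floors at the 20th and 60th percentile the 374 probe sets past 2-fold for TNF in wild-type cells became 1175 and 151, the 134 in knockout cells 468 and 73, the 665 between unstimulated genotypes 1250 and 357, the 752 with TNF 1475 and 386, and the 283 for the difference 1154 and 84, the last also 473 with no floor and 166 with probe sets above the floor on every array. The 102 limma calls for TNF became 160 with quantile normalization, 448 with equal medians, 186 with no floor, 199 with probe sets above the floor on every array and 27 with no intensity trend. No paired analysis was possible because the labels give no replicate numbers and each group holds 1 array; the additive fit already takes the TNF effect within genotype.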
